A study of Mus musculus with 51 samples.

Results

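Macrophage genes of the developing mouse limb were described here through 37 genes that are widely used to mark these cells or that serve their main functions. All 37 were found on the array by gene symbol, on 63 probe sets that each name 1 gene, among 18194 genes in all. Expression was measured in limb buds and whole embryos of wild-type FVB mice, with the RNA of 1 embryo on each of 51 Affymetrix mouse genome arrays. Forelimb buds contributed 3 arrays of E9.5, 5 of E10.5, 4 of E11.5, 5 of E12.5 and 5 of E13.5. Hindlimb buds contributed 4 arrays of E10.5 and 5 of each later stage, and whole embryos 2 arrays of each of the 5 stages. The labels name no transgene and no treatment. The limb buds were whole, so mesenchyme, ectoderm, vessels and blood were measured together with any macrophages. A lower signal can therefore come from fewer macrophages or from less RNA of the gene in each of them, and these cannot be told apart. The replicates of a limb stage were littermates, so stage and litter coincide and the p-values measure the spread between littermates.

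Values are log2 of the deposited signal, and where a gene has several probe sets their mean was used. A gene was called where the fold change was 2 or greater, which is a log2 fold change of at least 1 in either direction, at a Benjamini-Hochberg adjusted p under 0.001 over all 18194 genes in limma. The arrays fall into 2 technical sets. The spiked-in bacterial transcript Dap gave log2 signals of 3.04 to 3.63 on the 38 limb arrays from E10.5 on, against 10.71 to 13.29 on the 13 arrays of whole embryos and E9.5 forelimbs. The 3′ minus 5′ probe set difference, a sign of RNA or labelling quality, was -0.10 to 0.16 for Gapdh and 0.19 to 0.70 for Actb on the limb arrays (log2), against 1.48 to 2.85 and 0.85 to 2.07 on the 13 others. Comparisons among later limb arrays, among whole-embryo arrays, and of E9.5 forelimb with E9.5 whole embryo lie within a set, and all others cross between the sets. Of 2 arrays whose labels disagree, 1 is titled E11.5 hindlimb and 1 E12.5 forelimb, and on both the limb type genes Tbx5, Tbx4 and Pitx1 read with the limb of the title.

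Macrophages are phagocytes that enter embryonic tissues early, first from the yolk sac and later from the fetal liver, and spread through vessels and mesenchyme. Their survival depends on the receptor Csf1r, and the transcription factor PU.1, encoded by Spi1, drives their gene programme. They take up dying cells and matrix, and in the limb they are known for clearing the cells that die between the digits.

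PU.1 is known to bind purine-rich DNA, and a motif of this kind, GAGGAAGT, was searched on both strands of the 300 bases from 250 before to 50 after each gene start (RefSeq, GRCm38.p6). Promoters were matched for 29 of the 37 genes, 36 promoters in all. The motif lay in 6 of the 36 (16.7%), those of C1qc, Cd53, Ctsc, Ctss, F13a1 and Pf4, against 3.2% of 32851 mouse promoters. Its shorter core GAGGAA, which every copy of the longer motif contains, lay in 58.3% of the 36 and in 28.3% of all. These shares are a description and say nothing of binding. The windows below, each 5′ to 3′ on the strand of its gene, show the copy of the motif, in capitals and read here as ACTTCCTC, in a gene that rose in both limbs (C1qc), in one that was not called in either limb (Ctsc) and in one that stayed behind the whole embryo (Pf4). Counted from the gene start, the motif lies at -195 in C1qc, -151 in Ctsc and -10 in Pf4.
C1qc, chr4:136893062-136893149, minus strand: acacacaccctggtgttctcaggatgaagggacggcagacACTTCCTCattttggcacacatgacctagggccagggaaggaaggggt
Ctsc, chr7:88277894-88277981, plus strand: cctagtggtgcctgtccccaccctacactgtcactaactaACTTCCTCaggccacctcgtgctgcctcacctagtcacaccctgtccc
Pf4, chr5:90772385-90772434, plus strand: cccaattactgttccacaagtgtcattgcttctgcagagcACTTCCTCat

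From E10.5 to E13.5 many of the macrophage genes rose in both limbs, led by Mrc1, the mannose receptor, F13a1, the A chain of coagulation factor XIII, C1qa, a chain of complement component C1q, and Ctss, the protease cathepsin S. In forelimb 16 of the 37 members were called higher and 0 lower, against 5.43% and 5.13% of all genes. In hindlimb 13 were called higher and 0 lower, against 5.99% and 5.16% of all genes. The 13 hindlimb genes were all among the 16 of the forelimb, and Adgre1, Aif1 and Ms4a7 were called in forelimb alone. With its brighter probe set alone Ms4a7 was called in hindlimb too. At an unadjusted p under 0.05, 2 forelimb and 4 hindlimb members had negative changes. The median log2 fold change of the members was 0.67 in forelimb and 0.62 in hindlimb, where the median of all genes was -0.03 and -0.08. The median member of an array read 5.37 ± 0.16, 5.97 ± 0.11, 6.04 ± 0.08 and 5.996 ± 0.06 over the 4 forelimb stages from E10.5 to E13.5 (log2, SD over arrays). In hindlimb it read 5.26 ± 0.11, 5.71 ± 0.04, 5.71 ± 0.08 and 5.88 ± 0.07 at the same stages. From E10.5 on, the largest step of this median lay between E10.5 and E11.5 in both limbs. Of the 37 members 12 were dim, with no group mean at a log2 of 6 or more. Among the 25 others 14 were called in forelimb and 13 in hindlimb when the dim genes were left out. A gene could pass this filter through the stage or tissue where it was high, so these counts are no separate test. The share of calls among all genes left was not counted.

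**Figure D1:**
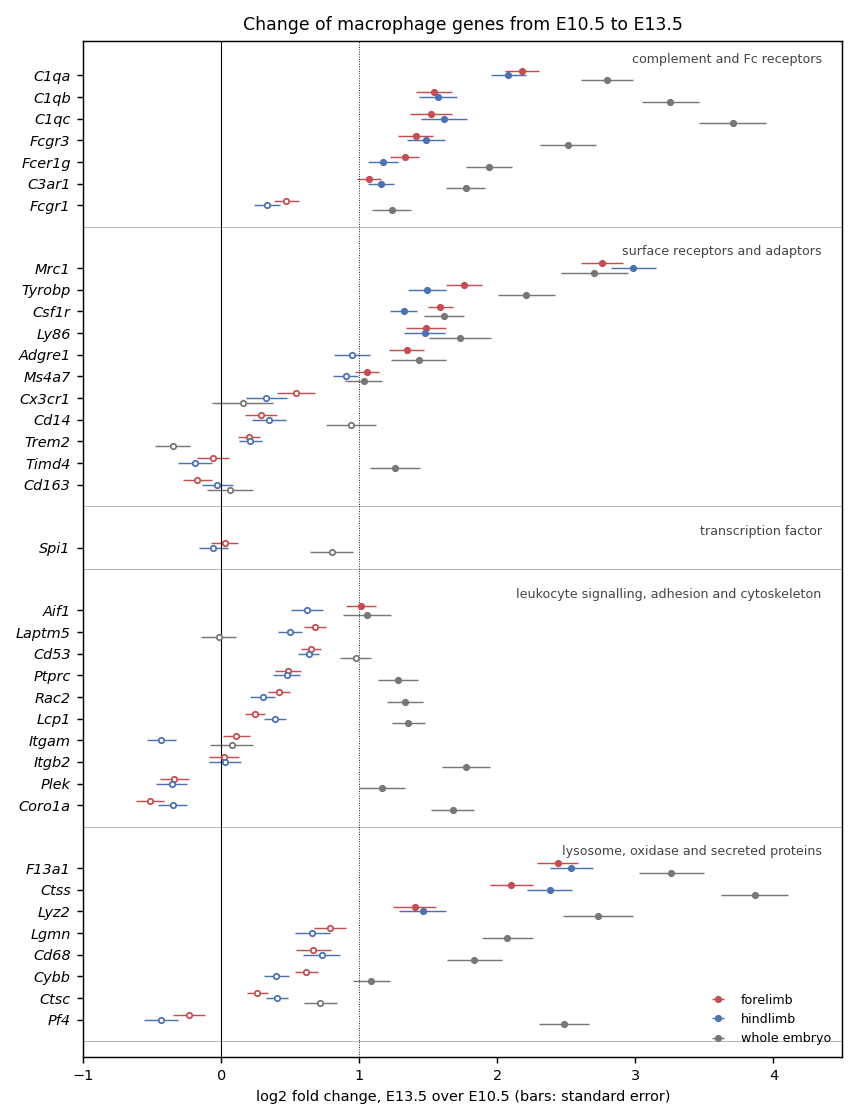
Log2 fold change of each of the 37 macrophage genes at E13.5 over E10.5 in forelimb, hindlimb and whole embryo (points, with standard errors as bars), grouped by role, filled points were called and open points were not, and the dotted line marks a fold of 2. The complement chains C1qa, C1qb and C1qc, Mrc1, F13a1 and Ctss lie to the right in all 3 tissues, while Pf4, Coro1a, Plek and Itgb2 lie to the right in whole embryo alone.

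Among the 7 complement and Fc receptor genes, 6 rose in each limb. C1qa, C1qb and C1qc encode the 3 chains of C1q, which tags dying cells for uptake, and the genes are neighbours on 1 chromosome. C1qa read 7.52, 7.64, 7.33, 7.38 and 7.85 on the E13.5 forelimb arrays, against 5.59, 5.35, 5.07, 5.36 and 5.46 at E10.5 (log2 fold change 2.18, standard error 0.12, adjusted p = 6.73e-20, limma). In hindlimb it read 7.11, 7.08, 6.82, 7.48 and 7.20 at E13.5, against 4.95, 5.25, 4.86 and 5.19 at E10.5 (log2 fold change 2.08, standard error 0.13, adjusted p = 2.60e-18, limma). The stages did not overlap in either limb, and every E13.5 array lay more than 1 log2 unit above every E10.5 array. C1qb read 7.18, 7.51, 7.15, 7.30 and 7.51 in E13.5 forelimb, against 5.94, 5.77, 5.24, 5.85 and 6.14 at E10.5 (log2 fold change 1.54, standard error 0.13, adjusted p = 7.40e-14, limma), and 6.94, 6.93, 6.90, 7.42 and 7.26 in E13.5 hindlimb, against 5.40, 5.34, 5.58 and 5.76 at E10.5 (log2 fold change 1.57, standard error 0.14, adjusted p = 2.44e-13, limma). C1qc read 6.25, 6.71, 6.60, 6.27 and 6.92 in E13.5 forelimb, against 5.29, 5.12, 4.47, 4.97 and 5.30 at E10.5 (log2 fold change 1.52, standard error 0.15, adjusted p = 1.30e-11, limma), and 6.23, 6.27, 6.14, 6.49 and 6.43 in E13.5 hindlimb, against 4.93, 4.89, 4.27 and 4.71 at E10.5 (log2 fold change 1.61, standard error 0.16, adjusted p = 1.25e-11, limma). Neither gene had overlapping stages in either limb. C1qb has 3 probe sets that differ in size of change, and with the brightest alone its log2 fold changes were 1.01 in forelimb and 0.99 in hindlimb, the second short of the fold threshold. Fcgr3, a low-affinity receptor for antibody, rose by 1.41 in forelimb and 1.48 in hindlimb, and Fcer1g, the signalling chain shared by Fc receptors, by 1.33 and 1.17. C3ar1, the receptor of the complement fragment C3a, rose by 1.07 and 1.16, the forelimb value close to the threshold and at 0.80 with its brightest probe set. Fcgr1, the high-affinity antibody receptor, was at 0.47 in forelimb and 0.33 in hindlimb and was not called in either.

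Of the 11 surface receptors and adaptors, 6 rose in forelimb and 4 in hindlimb. Mrc1, which binds mannose-bearing ligands and marks tissue-resident macrophages, had the largest change of all members in both limbs. It read 9.05, 9.22, 9.10, 8.90 and 9.23 on E13.5 forelimb arrays, against 6.74, 6.36, 6.19, 6.26 and 6.16 at E10.5 (log2 fold change 2.76, standard error 0.15, adjusted p = 8.81e-20, limma). The hindlimb values were 8.57, 8.78, 8.66, 8.97 and 8.49 at E13.5, against 5.39, 5.80, 5.72 and 5.93 at E10.5 (log2 fold change 2.99, standard error 0.16, adjusted p = 5.09e-20, limma). Neither limb showed overlap between the stages. Csf1r, the receptor for the macrophage growth factors Csf1 and Il34, read 8.29, 8.45, 8.27, 8.37 and 8.46 in E13.5 forelimb, against 6.85, 6.82, 6.57, 6.70 and 6.99 at E10.5 (log2 fold change 1.59, standard error 0.09, adjusted p = 2.30e-19, limma). In hindlimb Csf1r read 7.86, 7.92, 7.78, 8.13 and 8.11 at E13.5, against 6.76, 6.51, 6.57 and 6.72 at E10.5 (log2 fold change 1.32, standard error 0.10, adjusted p = 6.50e-16, limma). All E13.5 arrays of a limb lay above all its E10.5 arrays.

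Tyrobp, the adaptor DAP12 that signals for Trem2 and related receptors, rose by 1.76 in forelimb and 1.49 in hindlimb. Ly86, a secreted partner of the receptor RP105, rose by 1.48 and 1.47. Adgre1, which encodes a surface antigen used to mark mouse macrophages, read 6.91, 7.03, 6.84, 7.06 and 7.46 in E13.5 forelimb, against 5.69, 5.56, 5.61, 5.80 and 5.92 at E10.5 (log2 fold change 1.34, standard error 0.13, adjusted p = 1.16e-12, limma). In hindlimb it read 6.51, 6.38, 6.83, 7.11 and 6.93 at E13.5, against 5.87, 5.73, 5.91 and 5.71 at E10.5, a log2 fold change of 0.95 (standard error 0.13) just short of the threshold, again with no overlap. Ms4a7, a membrane protein of macrophages, was at 1.06 in forelimb, called, and at 0.90 in hindlimb, not called. These values average a brighter and a dim probe set, and with the brighter alone Ms4a7 was called in hindlimb too, at 1.65. The forelimb change minus the hindlimb change was 0.40 for Adgre1 (adjusted p = 0.153, limma), and no member was called in that contrast, so a call in 1 limb alone does not show a difference between the limbs. Cx3cr1, the fractalkine receptor, had log2 fold changes of 0.54 in forelimb and 0.33 in hindlimb, Cd14, a co-receptor for bacterial lipopolysaccharide, 0.29 and 0.34, and Trem2, a lipid receptor, 0.20 and 0.21. Cd163, the haemoglobin scavenger receptor, and Timd4, a receptor for phosphatidylserine on dying cells, were dim throughout, at group means of 2.99 to 3.22 for Cd163 and 3.67 to 3.89 in the limbs for Timd4, and were not called.

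Spi1 was the only transcription factor among the members, and it was not called. It read 5.75, 5.81, 5.65, 5.69 and 5.74 on the E13.5 forelimb arrays, against 5.71, 5.93, 5.66, 5.40 and 5.81 at E10.5, a log2 fold change of 0.02 (standard error 0.10). The hindlimb arrays read 5.71, 5.75, 5.32, 5.71 and 5.54 at E13.5, against 5.95, 5.64, 5.66 and 5.40 at E10.5, a change of -0.06 (standard error 0.11). The stages overlapped in both limbs. Spi1 has 1 probe set here, and its means over the 14 groups lay between 5.61 and 6.41, the highest in E13.5 whole embryo.

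The 10 leukocyte signalling, adhesion and cytoskeleton genes held fewer calls, with 1 higher in forelimb and 0 in hindlimb. The one called was Aif1, the actin-bundling protein IBA1 that marks macrophages and microglia, at 5.28, 5.41, 5.55, 4.79 and 5.62 in E13.5 forelimb, against 4.37, 4.35, 4.20, 4.20 and 4.48 at E10.5. Its log2 fold change of 1.01 (adjusted p = 7.26e-11, limma) lay at the threshold, ranged from 0.84 to 1.15 over 16 alternatives of the processing or with 1 array left out, and was not called in 6 of them. Ptprc, the leukocyte antigen CD45, read 4.61, 4.73, 4.60, 4.59 and 4.66 in E13.5 forelimb, against 4.35, 4.07, 3.87, 4.13 and 4.35 at E10.5 (log2 fold change 0.48, not called). Its hindlimb values were 4.28, 4.56, 4.48, 4.55 and 4.29 at E13.5, against 3.89, 3.89, 4.17 and 3.88 at E10.5 (0.47, not called). The E13.5 values of Ptprc lay above those of E10.5 on every array of both limbs. The values of Ptprc, Cd53 and Laptm5, of which Cd53 is a membrane protein and Laptm5 a lysosomal protein of leukocytes, average brighter and dim probe sets, and with the brightest alone their forelimb log2 fold changes were 1.02, 1.34 and 1.14, all called. In hindlimb, with the brightest alone, Cd53 and Laptm5 were called, at 1.27 and 1.28, and Ptprc was not. Coro1a, an actin regulator of leukocytes, had lower values at E13.5 than at E10.5. It read 6.06, 6.10, 6.02, 6.01 and 6.19 in E13.5 forelimb, against 6.73, 6.60, 6.48, 6.46 and 6.69 at E10.5 (log2 fold change -0.52), and 6.11, 6.21, 5.95, 6.09 and 6.08 in E13.5 hindlimb, against 6.45, 6.60, 6.27 and 6.44 at E10.5 (-0.35). No E13.5 array of Coro1a reached an E10.5 array of the same limb, yet the change stayed under a fold of 2. Plek, a substrate of protein kinase C in platelets and leukocytes, was at -0.34 in forelimb and -0.36 in hindlimb. Itgam and Itgb2, the 2 chains of complement receptor 3, were at 0.11 and 0.02 in forelimb and at -0.43 and 0.03 in hindlimb, and Rac2, a GTPase of blood cells, and Lcp1, the actin-bundling L-plastin, at 0.42 and 0.24 in forelimb and 0.30 and 0.39 in hindlimb.

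Of the 8 lysosome, oxidase and secreted protein genes, F13a1, Ctss and Lyz2 rose in both limbs. F13a1 read 8.91, 9.07, 9.08, 9.09 and 9.22 in E13.5 forelimb, against 6.79, 6.79, 6.59, 6.27 and 6.74 at E10.5 (log2 fold change 2.44, standard error 0.15, adjusted p = 1.32e-18, limma), and 8.33, 8.48, 8.60, 8.71 and 8.39 in E13.5 hindlimb, against 6.03, 5.70, 5.67 and 6.45 at E10.5 (log2 fold change 2.54, standard error 0.16, adjusted p = 2.73e-18, limma). The lowest E13.5 array of either limb lay more than 1 log2 unit above the highest E10.5 array. Ctss read 8.37, 8.55, 8.21, 8.40 and 8.38 in E13.5 forelimb, against 6.44, 6.69, 5.65, 5.93 and 6.67 at E10.5 (log2 fold change 2.10, standard error 0.15, adjusted p = 7.64e-16, limma). In hindlimb Ctss read 8.01, 8.01, 7.93, 8.28 and 8.15 at E13.5, against 5.68, 5.74, 5.29 and 6.07 at E10.5 (log2 fold change 2.38, standard error 0.16, adjusted p = 9.83e-17, limma). The E10.5 forelimb arrays of Ctss were spread over more than 1 log2 unit and the E13.5 arrays less widely. Lyz2, lysozyme of macrophages and neutrophils, rose by 1.40 in forelimb and 1.46 in hindlimb. Lgmn, the lysosomal protease legumain, was at 0.79 and 0.66, Cd68, a lysosomal glycoprotein of macrophages, at 0.67 and 0.73, Cybb, the catalytic subunit of the phagocyte oxidase, at 0.62 and 0.40, and Ctsc, cathepsin C, at 0.26 and 0.40 in forelimb and hindlimb, none of them called. Pf4, platelet factor 4, which is made by megakaryocytes and by some macrophages, was at -0.23 in forelimb and -0.44 in hindlimb.

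Most of the calls made within single steps fell in the first day. Between E10.5 and E11.5, 6 members were called in forelimb and 7 in hindlimb, against 1.71% and 1.95% of all genes, and C1qa, C1qb, C1qc, Ctss and Mrc1 were called in both. Tyrobp was also called in forelimb, and F13a1 and Fcgr3 in hindlimb, and whether these differ between the limbs in this step was not tested. The next day, from E11.5 to E12.5, gave 0 calls of members in either limb, against 0.599% of all genes called higher in forelimb and 0.583% in hindlimb and 0.165% and 0.242% called lower, and 8 forelimb and 9 hindlimb members had an unadjusted p under 0.05 with a positive change and 2 and 3 with a negative one. From E12.5 to E13.5, F13a1 and Mrc1 were called in both limbs, against 1.42% and 1.55% of all genes. C1qa stood at 5.37, 6.999, 7.09 and 7.54 over the 4 forelimb stages from E10.5, so that 1.63 of its log2 change came in the first step. C1qc stood at 5.03, 6.40, 6.50 and 6.55, and Ctss at 6.28, 8.003, 8.12 and 8.38. The means of Mrc1 were higher at each later stage, with forelimb means of 6.34, 7.43, 8.03 and 9.10 and hindlimb means of 5.71, 7.03, 7.46 and 8.69. Its last step was 1.07 in forelimb (adjusted p = 1.47e-07, limma) and 1.23 in hindlimb (adjusted p = 1.19e-08, limma). The forelimb steps of F13a1 were 0.87, 0.55 and 1.02. Some other members, among them Lyz2 and Adgre1 in forelimb, gained more in the last step than in the first without a call in either. Whether their steps differ was not tested. Whether the steps differ between C1qa and Mrc1 was not tested. The 2 forelimb calls of the last step rest on single arrays: without E12.5 replicate 1 there were 0, and without E12.5 replicate 2 or 3 or E13.5 replicate 5 there was 1. The first-step call of Tyrobp in forelimb was lost when any 1 of 4 arrays was left out (E10.5 replicates 3 and 4, E11.5 replicates 3 and 4), at 0.98 to 0.99 on the log2 scale. With the brightest probe set alone C1qb was called in neither limb in this step, at 0.68 in forelimb and 0.59 in hindlimb. The calls of C1qb and Fcgr3 in hindlimb were each lost when any 1 of 3 was left out (E10.5 replicate 2 and E11.5 replicate 5 for both, E10.5 replicate 1 for C1qb and replicate 3 for Fcgr3), at 0.91 to 0.99. In hindlimb the last step had 1 call without E12.5 replicate 1 and 1 with the disagreeing arrays grouped by their other labels, and the first step had 4 after quantile normalization.

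**Figure D2:**
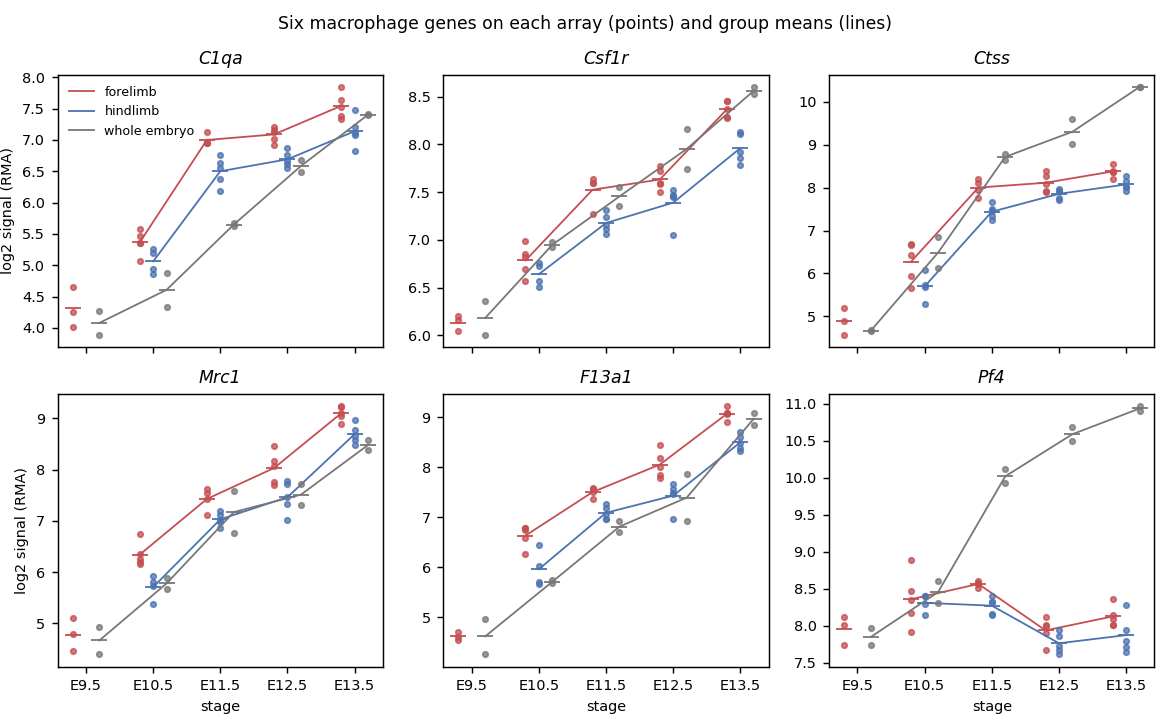
Log2 signal of 6 macrophage genes on every array (points) by stage, in forelimb, hindlimb and whole embryo, with group means as bars joined by lines. E9.5 forelimb is not joined because it lies in the other set of arrays, and the limb means of C1qa and Ctss gain most before E11.5, those of Mrc1 and F13a1 gain up to E13.5, and Pf4 climbs past a log2 of 10 in whole embryo only.

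At E9.5, when only the forelimb was sampled, 1 of the 37 macrophage genes was called higher in it than in whole embryo and 0 lower, shares near the 2.08% and 1.61% of all genes, and 3 members had an unadjusted p under 0.05 with a negative difference. The one called was Fcer1g, at 5.94, 5.60 and 5.93 in forelimb, against 4.80 and 4.40 in whole embryo (log2 fold change 1.22, standard error 0.15, adjusted p = 2.43e-08, limma), and it was not called when these 2 groups were fitted alone, while 2 members were called without E9.5 whole embryo replicate 1. Adgre1 read 6.35, 6.41 and 6.60 in E9.5 forelimb, against 6.41 and 6.85 in whole embryo, and Csf1r 6.04, 6.16 and 6.20, against 6.35 and 6.01. The groups overlapped for both genes. From E9.5 to E10.5, 10 members were called higher in forelimb, against 5.74% of all genes, with F13a1 (2.01), Mrc1 (1.56) and Fcgr3 (1.47) the furthest up on the log2 scale. With the brightest probe set alone C1qb (0.36) and Lcp1 (0.50) were not called, while Csf1r and Ptprc were. Without E9.5 forelimb replicate 3 the calls of C1qa (0.91) and Tyrobp (0.98) were lost. That of C1qa was also lost without E10.5 forelimb replicate 1 (0.9986). In this step 0 members were called lower, against 1.8% of all genes, and 5 had an unadjusted p under 0.05 with a negative change. Adgre1 was the furthest down, at -0.74. This step crosses the 2 sets of arrays, so the stage cannot be told apart from the set of arrays.

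Forelimb read slightly higher than hindlimb for most macrophage genes at every stage, but no member was called at any of them. The differences were positive for 30, 31, 32 and 33 of the 37 members over the 4 stages from E10.5, with medians of 0.15, 0.19, 0.23 and 0.23, where the medians of all genes were -0.0293, -0.0006, 0.0105 and -0.0008. The 0 calls compare with 0.418%, 0.313%, 0.462% and 0.236% of all genes called higher in forelimb at the 4 stages. Of all genes 0.148%, 0.0989%, 0.044% and 0.0495% were called lower. At an unadjusted p under 0.05 the members higher in forelimb numbered 14, 18, 20 and 21 and those lower 1, 0, 0 and 0. The share of all genes under that p was not counted, and the shares called are no background for it. The mean of forelimb lay above that of hindlimb at all 4 stages for 24 of the 37 members and for 9.56% of all genes. Every forelimb array lay above every hindlimb array for 1, 10, 11 and 8 members over these stages, where the same held for 8.96%, 5.93%, 8.18% and 3.86% of all genes. No member had all forelimb arrays below all hindlimb arrays. These members share the same arrays, so their differences are not independent of each other. The authors describe hindlimbs as delayed in morphology relative to forelimbs. In every comparison of the limbs at the same day, limb type and this delay cannot be told apart.

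Ly86 had the widest gap between the limbs. It read 6.05, 6.41, 6.78, 6.54 and 6.38 in E12.5 forelimb, against 5.40, 5.62, 5.65, 5.79 and 5.68 in hindlimb (log2 fold change 0.81, standard error 0.14, adjusted p = 1.03e-04, limma), which passed the adjusted p but not the fold. F13a1 read 8.91, 9.07, 9.08, 9.09 and 9.22 in E13.5 forelimb, against 8.33, 8.48, 8.60, 8.71 and 8.39 in hindlimb, a log2 difference of 0.57 (standard error 0.15), and the differences at E10.5, E11.5 and E12.5 were 0.67, 0.41 and 0.62. At E11.5, E12.5 and E13.5 no hindlimb array of F13a1 reached a forelimb array. Tyrobp was at 7.56, 7.93, 7.63, 7.75 and 7.96 in E13.5 forelimb, against 6.99, 7.16, 7.08, 7.53 and 7.20 in hindlimb, a difference of 0.58 (standard error 0.13). Csf1r differed by 0.14, 0.35, 0.24 and 0.41 over the 4 stages, and C1qa by 0.30, 0.50, 0.40 and 0.40. Of the changes from E10.5 to E13.5, 0 members were called in forelimb change minus hindlimb change, against 0.291% of all genes called higher and 0.627% lower, and 3 had an unadjusted p under 0.05, all higher in forelimb. These were Itgam (0.54), Adgre1 (0.40) and Aif1 (0.39).

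**Figure D3:**
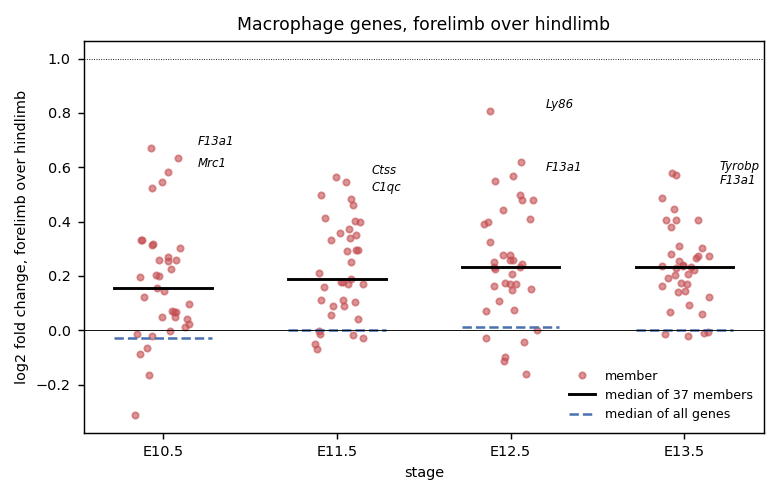
Log2 fold change of the 37 macrophage genes, forelimb over hindlimb, at each stage (points), with the median of the members (solid bar) and of all 18194 genes (dashed bar). Most points lie above 0 and none reaches the dotted line at a fold of 2.

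In the whole embryo more of the macrophage genes rose than in the limbs. From E10.5 to E13.5, 28 of the 37 members were called higher, against 9.88% of all genes, with a median log2 fold change of 1.43, and all 16 genes called in forelimb were among the 28. Another 12 were called in the whole embryo and in neither limb, among them Pf4 and Itgb2. Pf4 read 8.09, 8.36, 8.01, 8.15 and 8.01 in E13.5 forelimb, against 8.35, 8.46, 7.92, 8.17 and 8.88 at E10.5, and 10.91 and 10.96 in E13.5 whole embryo, against 8.30 and 8.60 at E10.5. Itgb2 read 3.91, 4.20, 3.97, 4.06 and 3.80 in E13.5 forelimb, against 4.21, 3.84, 3.60, 3.95 and 4.24 at E10.5, and 6.34 and 6.37 in E13.5 whole embryo, against 4.58 and 4.57 at E10.5. The stages of both genes overlapped in forelimb and did not in whole embryo, of which there were only 2 arrays a stage. The median member of a whole-embryo array read 4.63, 5.25, 5.57, 6.13 and 6.60 over the 5 stages, with the largest SD at 0.21.

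The difference between the changes was tested directly. A constant offset between the 2 sets of arrays cancels in it, but the Gapdh 3′ minus 5′ difference itself ran over 1.48 to 2.85 within the set that holds the whole embryos, and its part in the result was not tested. Forelimb change minus whole-embryo change was called lower for 13 members, against 9.87% of all genes, and hindlimb change minus whole-embryo change for 13, against 9.49%, with 12 shared. Both contrasts use the same whole-embryo arrays. Pf4 had the largest difference, at -2.72 in forelimb (standard error 0.22, adjusted p = 8.32e-14, limma) and -2.92 in hindlimb. Coro1a was at -2.19 and -2.03, C1qc at -2.19 and -2.09, Ctss at -1.76 and -1.48 and Itgb2 at -1.75 and -1.75. In contrast, 3 surface receptors stood closer to 0, Mrc1 at 0.06 and 0.28, Csf1r at -0.03 and -0.29, and Adgre1 at -0.09 and -0.48. Without E10.5 whole embryo replicate 1 the hindlimb difference of Ctss was -1.12 and not called. Mrc1, Csf1r and Adgre1 were not called, with standard errors of 0.29, 0.17 and 0.23 in forelimb.

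Set against whole embryo of the same stage, the limbs held few macrophage calls early and more on the lower side late. In forelimb the members called higher and lower were 1 and 2 at E10.5, against 10.49% and 3.44% of all genes, 3 and 3 at E11.5 (11.67% and 3.64%), 0 and 4 at E12.5 (8.52% and 5.44%) and 0 and 10 at E13.5 (5.54% and 8.12%). In hindlimb they were 1 and 2 at E10.5, against 9.77% and 3.41% of all genes, 1 and 5 at E11.5 (11.76% and 3.95%), 0 and 5 at E12.5 (7.11% and 5.43%) and 0 and 13 at E13.5 (6.1% and 8.35%). Where 0 were called higher, the unadjusted p was under 0.05 for 11 forelimb and 3 hindlimb members at E12.5 and for 3 and 1 at E13.5. The calls on the lower side at E10.5 were Adgre1 (-1.43 in forelimb and -1.34 in hindlimb) and Laptm5 (-1.30 and -1.28), kept under every alternative. The early calls on the higher side were C1qa and C1qc in E11.5 forelimb and Lcp1 in both limbs at E10.5 and E11.5. C1qa read 6.97, 6.94, 7.13 and 6.96 in E11.5 forelimb, against 5.62 and 5.68 in whole embryo (log2 fold change 1.35, standard error 0.16, adjusted p = 2.12e-09, limma), with no overlap. C1qc stood at 1.24 and at 0.85, not called, without whole embryo replicate 1. With its brighter probe set alone Lcp1 was not called, at 0.59 in E10.5 forelimb and 0.11 in E11.5 hindlimb, where the mean of its 2 probe sets gave 1.44 and 1.13. At E13.5 the 10 members below whole embryo in both limbs were Adgre1, C1qb, C1qc, Coro1a, Ctss, Itgb2, Lyz2, Pf4, Rac2 and Timd4, and Fcgr1, Fcgr3 and Ptprc were called below it in hindlimb. Calls that ended without 1 array were those of Rac2 in forelimb (-0.99 without whole embryo replicate 1 and -0.9996 without forelimb replicate 1), and, each without whole embryo replicate 2, of Lyz2 in forelimb (-1.05, adjusted p = 0.00167, limma), Fcgr1 in hindlimb (-0.89) and Fcgr3 in hindlimb (-0.93). Pf4 was lowest, at -2.81 in forelimb and -3.06 in hindlimb, followed by Itgb2 at -2.37 and -2.46. Ctss read 8.37, 8.55, 8.21, 8.40 and 8.38 in E13.5 forelimb, against 10.35 and 10.35 in whole embryo, where no array overlapped. Without single arrays the members called higher numbered 3 in E10.5 forelimb (whole embryo replicate 2 left out), 2 in E11.5 hindlimb (whole embryo replicate 2) and 2 in E12.5 forelimb (whole embryo replicate 2). From E10.5 on these comparisons cross the 2 sets of arrays, with their different 3′ to 5′ values, and tissue and set cannot be told apart in a single stage.

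Genes of other blood cells moved alongside these differences, and their part in them was not tested. From E10.5 to E13.5, 5.43% of all genes were called higher in forelimb, 5.99% in hindlimb and 9.88% in whole embryo. Called lower were 5.13% in forelimb and 5.16% in hindlimb. The counts of that change in the lists that follow stand against these shares. The 8 neutrophil genes summed to 7.87 to 8.43 (log2 of the summed signal) in E13.5 forelimb, 7.98 to 8.30 in hindlimb and 10.501 to 10.758 in whole embryo, where 7 of the 8 were called higher at E13.5 than at E10.5. In forelimb 2 of them rose, S100a8 (2.02) and S100a9 (2.24), subunits of calprotectin, and 2 fell, the granule genes Prtn3 (-1.40) and Mpo (-1.03). In hindlimb S100a8 alone rose (1.66). The 3 megakaryocyte genes found summed to 7.57 to 7.67 in E13.5 forelimb, 7.21 to 7.75 in hindlimb and 10.84 to 10.87 in whole embryo. Ppbp, a platelet chemokine, fell by 1.82 in forelimb and by 1.75 in hindlimb on the log2 scale and rose by 4.26 in whole embryo, beside the values of Pf4 above. All 6 red blood cell genes found were called lower in both limbs, and their sum was 11.79 to 12.32 at E13.5, against 14.91 to 15.21 at E10.5 in forelimb, and 11.64 to 12.06 at E13.5, against 15.02 to 15.04 at E10.5 in hindlimb. The brightest of them were the embryonic globins Hba-x and Hbb-bh1, at 13.92 and 14.11 in E10.5 forelimb and 11.89 and 9.18 at E13.5. The sum mainly follows these globins and is no count of red blood cells. RMA gives no signal of 0, so no marker was at 0 on any array.

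Among the 5 mast cell genes only Cpa3 was called between the limbs. Cpa3, the mast cell carboxypeptidase, rose by 5.13 in forelimb (adjusted p = 1.33e-24, limma) and 3.67 in hindlimb, and Cma1, a chymase, by 1.87 and 1.40, 2 of 5 genes in each limb. The other 3 were not called, with log2 fold changes of -0.10 in forelimb and -0.13 in hindlimb for Fcer1a, 0.20 and 0.06 for Mcpt4 and 0.29 and 0.00 for Tpsb2. At E13.5 Cpa3 averaged 9.25 ± 0.30 in forelimb and 8.06 ± 0.37 in hindlimb (SD, n = 5 each), a log2 fold change of 1.19, after 1.50 at E12.5. Forelimb over hindlimb at E13.5 was 0.51 for Cma1, 0.17 for Tpsb2, 0.09 for Mcpt4 and 0.03 for Fcer1a, none of them called. The summed mast cell signal was 9.17 to 9.97 in E13.5 forelimb, 8.07 to 8.99 in hindlimb and 8.73 to 8.74 in whole embryo, against 6.09 to 6.37 in E10.5 forelimb and 6.24 to 6.40 in E10.5 hindlimb. Its part in the higher forelimb values of the macrophage genes was not tested. Of the 6 lymphocyte genes 0 were called in either limb, with 2 higher and 2 lower in forelimb and 1 lower in hindlimb at an unadjusted p under 0.05. Of the 5 osteoclast genes Ctsk, cathepsin K, rose (1.89 in forelimb) and Acp5, tartrate-resistant acid phosphatase, fell (-1.45). Of 4 monocyte genes S100a4 rose in forelimb (1.38), of 3 microglia genes Sall1, also a gene of limb mesenchyme, fell there (-1.54), and of 6 blood progenitor genes Myb (-1.44) and Gfi1b (-1.23) fell. The 6 endothelial genes held 0 calls in forelimb, where 3 were higher and 2 lower at an unadjusted p under 0.05, and 1 in hindlimb, Emcn, the sialomucin endomucin, which fell (-1.11).

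**Figure D4:**
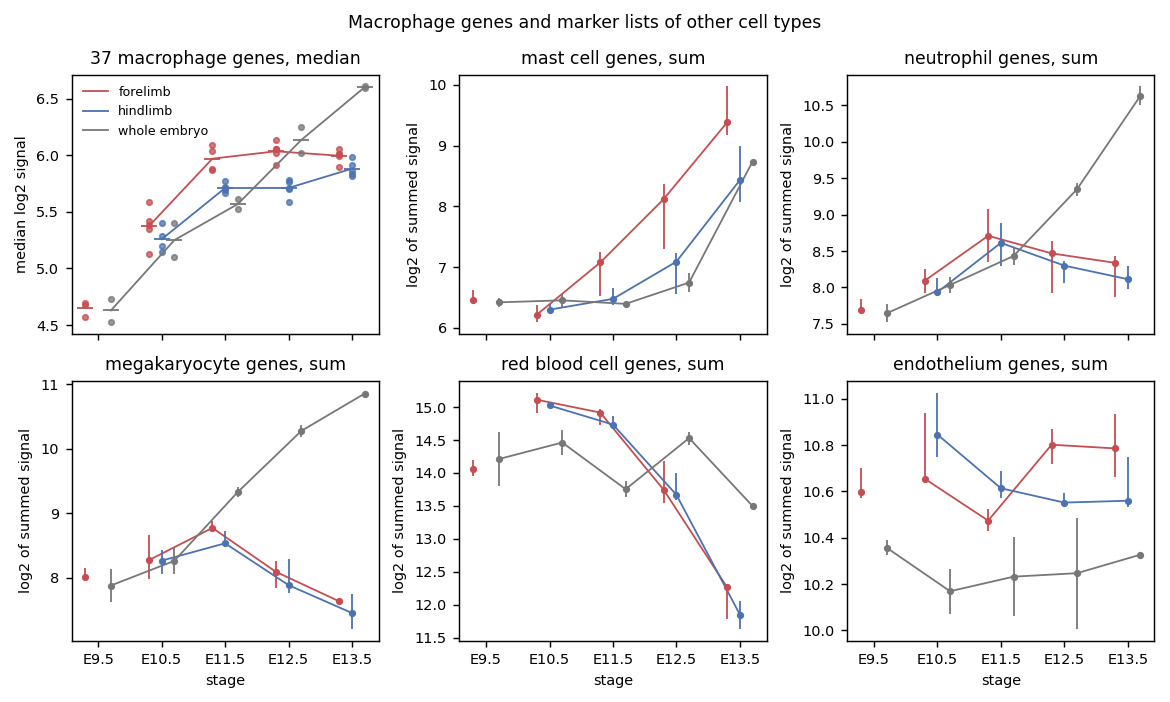
Median log2 signal of the 37 macrophage genes on every array (upper left, points, with group means as bars joined by lines), and log2 of the summed signal of 5 other marker lists by stage (points at the median array, bars from the lowest to the highest array), in forelimb, hindlimb and whole embryo. The macrophage median gains most before E11.5 in the limbs from E10.5 on, the mast cell sum, of which Cpa3 and Cma1 alone were called in the limbs, is higher at E13.5 than at E10.5 in all 3 tissues, and the neutrophil and megakaryocyte sums climb in whole embryo. The red blood cell sum, led by the embryonic globins Hba-x and Hbb-bh1, drops in the limbs.

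Other genes of macrophage biology moved unevenly. Among 12 macrophage growth factors and chemokines only Cxcl14, a chemokine, was called, at 1.83 in forelimb and 2.85 in hindlimb. The ligands of Csf1r, Csf1 and Il34, were at 0.35 and 0.16 in forelimb and 0.09 and -0.20 in hindlimb, not called. Of 15 phagocytosis and scavenger genes 7 rose in each limb and 1 fell in forelimb. Of all genes 5.43% were called higher in forelimb, 5.99% in hindlimb and 5.13% lower in forelimb. Lgals3, galectin-3, rose by 4.36 in forelimb and 2.79 in hindlimb, Lyve1, a hyaluronan receptor of lymphatic vessels and some macrophages, by 2.98 and 2.55, Cd36, a scavenger receptor, by 2.39 and 1.94, and Dab2, an endocytic adaptor, by 1.80 and 2.15, while Mertk, a receptor for dying cells, fell by 1.21 in forelimb. Lgals3 was also called between the limbs, at 1.02 at E12.5 and 1.44 at E13.5. Of 11 myeloid transcription factors 3 rose in both limbs, Mef2c (3.68 and 3.02), Maf (2.02 and 2.25) and Cebpa (1.58 and 1.51), and Tal1, a regulator of blood formation, fell (-1.91 and -1.65). Several of these genes serve other limb cells too, Mef2c in muscle and cartilage and Lgals3 in epithelium. None of the 10 lysosomal genes of many cell types, the 11 signalling partners or the 8 antigen presentation genes was called higher in either limb. At an unadjusted p under 0.05 the higher ones numbered 9, 5 and 4 in forelimb and 9, 3 and 3 in hindlimb. In hindlimb 2 signalling partners fell, Plcg2 (-1.73) and Ncf4 (-1.04). In the whole embryo 6 of the 10 lysosomal genes rose, as did 4 of the 11 signalling partners, against 9.88% of all genes.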

How the data were processed

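RNA of 1 embryo per array was labelled in 2 cycles and hybridised to Affymetrix mouse genome arrays. The authors deposited linear-scale intensities that they had made with RMA, after they had corrected a small blemish of 1 whole-embryo array (E12.5) against the median of its replicates. Versions are not given in the sources used here. RMA corrects the background, quantile normalizes and summarises the probes of a probe set, so it shrinks differences near background. Log2 was taken here. Of 45101 probe sets, 34958 name 1 gene, 932 name several and 9211 have none, and probe sets of a gene were averaged. Groups follow the sample titles.

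All 14 groups were fitted together in limma 3.58.1 (R 4.3.3), with 37 residual degrees of freedom, and the procedure was tested on simulated data. A gene was called at a fold of 2 or more and an adjusted p under 0.001, the thresholds of the methods. Counts at an unadjusted p under 0.05 are given without the share of all genes at that p, which was not counted. The alternatives were the groups compared alone, the brightest probe set, quantile normalization, a filter on dim genes (log2 of 6 in no group mean), a replicate block (duplicateCorrelation, statmod 1.5.0), the 2 disagreeing arrays left out or regrouped, and each array left out. The 37 members and the 16 other lists (119 of 131 genes found) were chosen with earlier results of these data known. Values on every array of a comparison are given for the most changed members, for Csf1r, Adgre1, the C1q genes, Spi1 and Ptprc, and for some others. These others include Coro1a and Pf4, whose direction departs from most. Plek, Itgam, Cd163 and Timd4 also depart from most in at least 1 limb, and their values are not given on every array.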

Additional observations from a re-analysis of the deposited data

Results flagged for a closer look

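Single arrays stood apart from the rest of their group for some macrophage genes. Of 296 pairs of a gene and a group of 4 or 5 arrays, 16 held an array whose gap to the nearest other exceeded Dixon's 95% critical value, where chance gives about 1 in 20. The array was the highest for C1qa on E11.5 forelimb replicate 3 at 7.13 (others 6.94 to 6.97), Timd4 on E12.5 hindlimb replicate 3 at 4.19 (others 3.65 to 3.76), Ptprc on E10.5 hindlimb replicate 3 at 4.17 (others 3.88 to 3.89), Laptm5 on E13.5 hindlimb replicate 5 at 5.95 (others 5.79 to 5.83), Itgam on E13.5 forelimb replicate 3 at 3.68 (others 3.45 to 3.48) and Ctsc on E10.5 hindlimb replicate 4 at 5.55 (others 5.27 to 5.29), all on the log2 scale. It was the lowest for C1qc on E11.5 forelimb replicate 1 at 6.23 (others 6.44 to 6.47), C1qc on E12.5 forelimb replicate 1 at 6.18 (others 6.54 to 6.62), Fcgr3 on E10.5 forelimb replicate 3 at 5.46 (others 5.91 to 6.04), Csf1r on E11.5 forelimb replicate 1 at 7.27 (others 7.60 to 7.63), Csf1r on E12.5 hindlimb replicate 1 at 7.06 (others 7.45 to 7.52), Cd163 on E10.5 forelimb replicate 5 at 2.95 (others 3.20 to 3.29), Laptm5 on E13.5 forelimb replicate 1 at 5.86 (others 6.01 to 6.06), Itgam on E10.5 forelimb replicate 3 at 3.25 (others 3.43 to 3.45), Rac2 on E12.5 forelimb replicate 5 at 4.73 (others 4.89 to 4.95) and Cd68 on E13.5 hindlimb replicate 5 at 5.81 (others 6.14 to 6.22).

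The change from E10.5 to E13.5 differed between limb and whole embryo by the test of the difference itself in limma. Forelimb change minus whole-embryo change gave log2 differences called for C1qb -1.71, C1qc -2.19, Cd68 -1.17, Coro1a -2.19, Ctss -1.76, Fcgr3 -1.10, Itgb2 -1.75, Lcp1 -1.11, Lgmn -1.28, Lyz2 -1.33, Pf4 -2.72, Plek -1.50 and Timd4 -1.32. Hindlimb change minus whole-embryo change gave C1qb -1.68, C1qc -2.09, Cd68 -1.11, Coro1a -2.03, Ctss -1.48, Fcgr3 -1.03, Itgb2 -1.75, Lgmn -1.41, Lyz2 -1.27, Pf4 -2.92, Plek -1.52, Rac2 -1.03 and Timd4 -1.45. All of them were negative, so that the limb change was the smaller. The calls of Cd68, Fcgr3, Lcp1, Lgmn and Lyz2 in forelimb and of Cd68, Ctss, Fcgr3, Lgmn, Lyz2 and Rac2 in hindlimb were lost under at least 1 alternative setting or without 1 array, Ctss only without E10.5 whole embryo replicate 1, at -1.12.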

How the results depend on the processing

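Counts of macrophage genes called were recomputed for 52 results under the alternative settings, which gave 826 values. Of these 808 lay within 1.5 times the count reported, 18 did not, and no call of a member turned its direction. Both counts of 16 and 13 genes called from E10.5 to E13.5 stayed within that margin under every alternative run, with 18 and 15 when each gene was read from its brightest probe set and 13 and 13 after quantile normalization. With the groups compared fitted alone, 0 members were called higher in E9.5 forelimb than in whole embryo. With the brightest probe set, 8 were called lower in E12.5 hindlimb than in whole embryo. After quantile normalization 4 were called from E10.5 to E11.5 in hindlimb, 2 were higher in E10.5 forelimb and 5 lower in E11.5 forelimb than in whole embryo, and 0 were higher in E10.5 or E11.5 hindlimb than in whole embryo. Grouping the 2 disagreeing arrays by their other labels left 1 called in hindlimb from E12.5 to E13.5. Leaving out 1 array at a time gave 1 to 2 genes higher in E9.5 forelimb than in whole embryo, 1 to 3 in E10.5 forelimb, 1 to 2 in E11.5 hindlimb, 0 to 2 in E12.5 forelimb, and 0 to 2 in forelimb and 1 to 2 in hindlimb from E12.5 to E13.5. The cause of these shifts was not tested.

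Forelimbs and hindlimbs of a stage share replicate numbers and may share embryos, but neither the labels nor the methods tie a number to an embryo. Deviations of same-numbered arrays correlated at -0.11 to 0.35 (18 pairs, median 0.10, 16 above 0), against -0.34 to 0.23 for 72 other pairs (median -0.02). Only 9 of the 18 exceeded 0.1, so the numbers were not used as pairs in the reported fit, and whether they mark embryos was not settled. With a replicate block (consensus correlation 0.11) 16 forelimb and 13 hindlimb genes were called at E13.5 over E10.5, and no count of members changed. RMA values carry no detection call, so the 12 dim members have no stated background to be read against, and the number of arrays, 2 for each whole-embryo stage, limits the precision.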
